A study of Mus with 8 samples.

Results

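The mitochondrial carrier genes of the Slc25a family were followed in brown adipose tissue of mice with and without Hilpda. Members were the probe sets annotated with a single gene whose symbol starts with Slc25a. This gave 46 genes, each with 1 probe set, of 30142 named genes. The family members filed under other symbols (Ucp1, Ucp3, Mtch1 and Mtch2) fall outside that choice and are given beside the other genes of mitochondrial transport.

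The study used 8 arrays of interscapular brown fat, 1 per mouse, from C57BL/6 mice. According to the labels, 4 carry a loss of Hilpda (KO, replicates 1 to 4) and 4 are wild type (WT, replicates 1 to 4). Hilpda encodes a lipid droplet protein known as an inhibitor of adipose triglyceride lipase. The labels call all mice female and give no age. The labels do not say whether Hilpda was deleted in the whole animal or in fat alone. The comparison asks what changes in brown fat when Hilpda is missing.

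Most carriers of this family sit in the inner mitochondrial membrane and exchange nucleotides, phosphate, carboxylates, amino acids and cofactors between cytosol and matrix. Their best known relative in brown fat is Ucp1, which lets protons return to the matrix and so releases heat. Brown adipocytes burn fatty acids, which enter the matrix as acylcarnitines through the carrier encoded by Slc25a20. The matrix also needs phosphate and ADP, supplied through Slc25a3 and the ADP/ATP carriers, and it takes up branched-chain amino acids through Slc25a44.

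The arrays form 2 sets that the labels do not mention. Set 1 holds replicates 1 and 2 of both genotypes, with a median log2 value over all named genes of 3.93 to 3.99. Set 2 holds replicates 3 and 4, with a median of 4.93 to 4.98. Log2 values are therefore compared within a set, and each set holds 2 arrays of each genotype. As a mark of low signal, the 95th percentile of 1225 olfactory receptor genes was used (3.80 to 3.94 in set 1, 4.74 to 4.84 in set 2), and all 12 brown adipocyte markers lay above it on every array. Hilpda itself read 4.45 and 4.37 in KO against 4.37 and 4.28 in WT in set 1 (limma adjusted p = 0.972), and 5.60 and 5.51 against 6.00 and 5.92 in set 2 (limma adjusted p = 0.144). Set 1 therefore shows no loss of Hilpda signal in the arrays labelled KO, and whether the probes lie in a deleted stretch is not known here. KO and WT below mean the arrays labelled so. The Y-linked gene Uty read 9.31 to 10.93 and the X-inactivation transcript Xist read 3.49 to 4.10, so that the recorded sex did not match the signals of any of the 8 arrays.

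Transcripts of other tissues varied between arrays. In set 1 the mean of 15 liver markers was 12.36 and 8.91 in KO against 8.44 and 6.53 in WT, and in set 2 it was 5.02 to 5.30. Of these 15 markers 14 were higher in KO in set 1 (median difference 3.12) and 12 in set 2 (median difference 0.07). Only 4 of them were above the olfactory 95th percentile on all arrays. For 20 skeletal muscle markers the mean over KO replicates 1 to 4 was 6.48, 9.37, 5.88 and 10.76, and over the WT arrays 8.36, 7.82, 11.16 and 9.46. Muscle markers were lower in KO in 16 of 20 cases in set 1 and in 20 of 20 in set 2, and 16 of them were above the olfactory level on all arrays. Of 7 macrophage markers 5 were higher in KO in set 1 and 7 in set 2. In such bulk tissue, fewer cells of a type and less RNA per cell cannot be told apart.

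To order the carriers by signal, each was given its percentile among all named genes on its own array. Probe sets differ in affinity, so this is an order of signals and not of transcript numbers. Of the 46 carriers 36 were above the olfactory 95th percentile on all arrays, 2 on some arrays and 8 on none. The median carrier stood at the 74.5th percentile. There were 2 carriers above the 99th percentile, 7 above the 95th and 13 above the 90th. The order was nearly the same in both sets, with 41 of 46 carriers moving by at most 3 places and Spearman's rho of 0.985 across the 46 genes, whose probe sets the sets share.

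**Figure D1:**
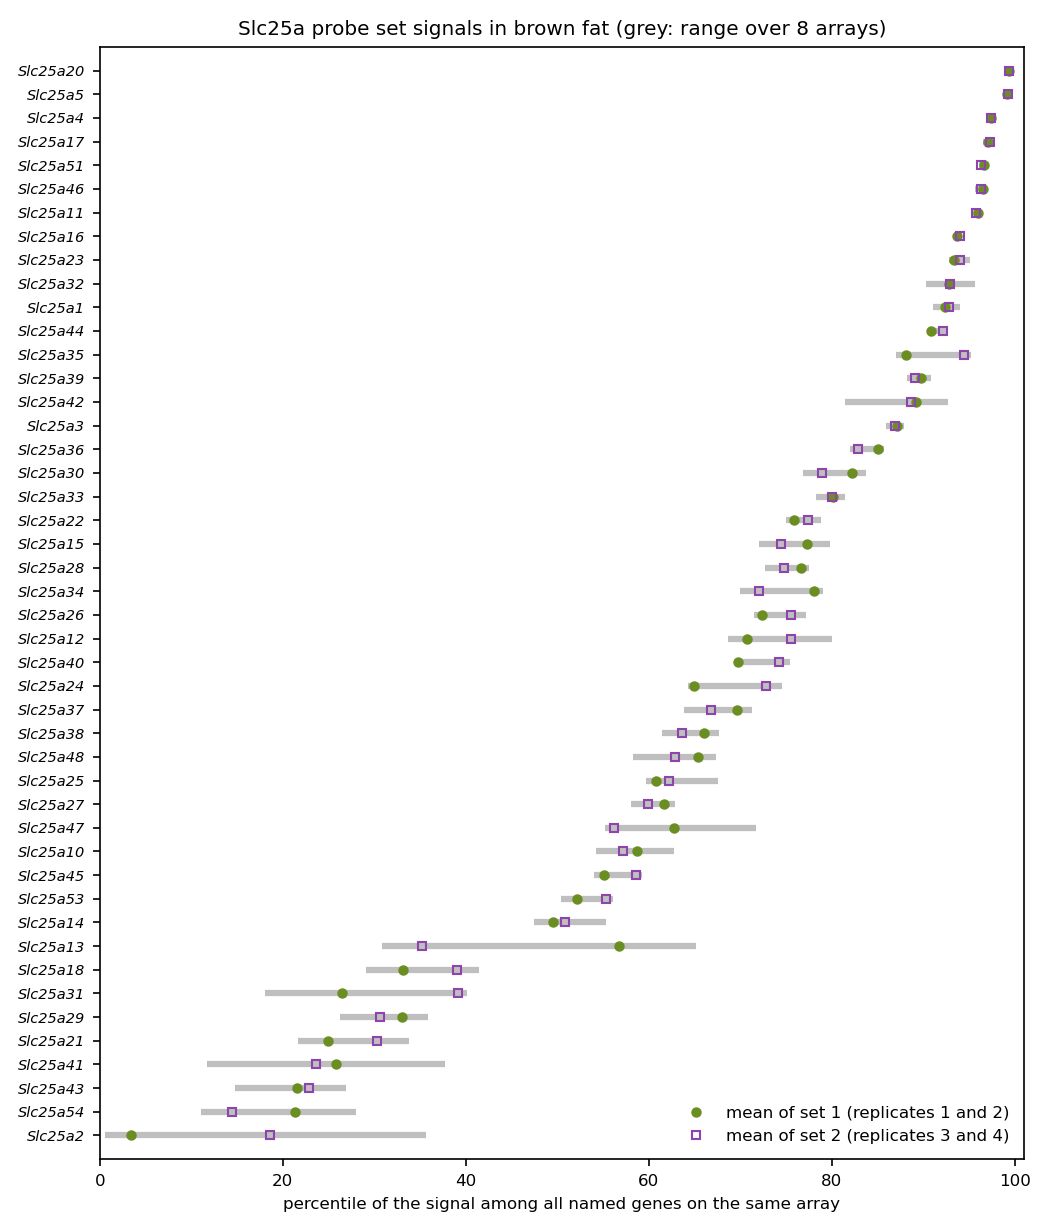
Place of each of the 46 Slc25a carriers among all 30142 named genes, as the percentile of its log2 signal on the same array. Filled circles are means of set 1, open squares means of set 2 (4 arrays each), and grey bars span all 8 arrays. Slc25a20 and Slc25a5 stand above the 99th percentile on every array, and the lowest 8 carriers lie in the range of low-signal genes.

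The carnitine/acylcarnitine carrier Slc25a20 had the highest signal. Over replicates 1 to 4 its KO values were 18.19, 18.38, 17.79 and 17.69, and its WT values 18.22, 18.04, 18.21 and 18.24. Its place ran from the 99.3rd to the 99.4th percentile, and it led on all 8 arrays. Slc25a5, the ADP/ATP carrier that most dividing tissues use, followed at the 99.2nd percentile with 17.43, 17.42, 17.32 and 17.51 in KO and 17.59, 17.47, 17.41 and 17.52 in WT. Gm5560, annotated as a pseudogene of Slc25a5, read 16.26 to 16.67, so RNA of the 2 loci may not be told apart by their probes. The muscle and heart ADP/ATP carrier Slc25a4 came next at the 97.4th percentile, with 13.91 to 14.67 in KO and 14.15 to 14.63 in WT, whereas the testis carrier Slc25a31 was not above the olfactory 95th percentile on any array.

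The next places belonged to cofactor carriers. Slc25a17, which carries coenzyme A and other nucleotides across the peroxisomal membrane, stood at the 97.2nd percentile and Slc25a51, the mitochondrial NAD carrier, at the 96.5th. Slc25a46, an outer membrane protein of mitochondrial dynamics, stood at the 96.4th percentile and Slc25a11, the oxoglutarate/malate carrier of the malate-aspartate shuttle, at the 95.8th. Places 8 to 10 were held by Slc25a16 (93.9th), the ATP-Mg/phosphate carrier Slc25a23 (93.7th) and the folate carrier Slc25a32 (92.8th). From place 8 to place 10 the order was weak, with each carrier above the next on 5 of 8 arrays. Slc25a4 lay above Slc25a17 on 6 arrays and Slc25a51 above Slc25a46 on 6. The other neighbours among the first 8 places kept their order on 8 of 8.

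Among metabolite carriers tied to lipid and amino acid use, the citrate carrier Slc25a1 stood at the 92.6th percentile and the branched-chain amino acid carrier Slc25a44 at the 91.5th. The phosphate carrier Slc25a3 stood at the 87.0th percentile, between 85.9 and 87.9 on all arrays. The coenzyme A carrier Slc25a42 covered 81.5 to 92.7. Slc25a35 and Slc25a34, carriers without a settled substrate, moved most between the sets, from rank 15 to 8 and from rank 20 to 27. The dicarboxylate carrier Slc25a10 stood only at the 57.9th percentile. Of the aspartate/glutamate carriers, Slc25a12 stood at the 73.1st percentile and Slc25a13, the main form in liver, at the 46th. The 8 carriers not above the olfactory level on any array were Slc25a18, Slc25a31, Slc25a29, Slc25a21, Slc25a41, Slc25a43, Slc25a54 and Slc25a2, and differences in them are not interpretable as changes in level.

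No carrier passed in the comparison of genotypes with the set as a term of the model. limma with Benjamini-Hochberg adjustment called 0 of 46 carriers and 0 of 30142 genes (0%). At an unadjusted p under 0.05 there were 2 carriers, Slc25a32 higher and Slc25a23 lower in KO, against 4.81% of all genes (2.47% higher and 2.34% lower). Carriers were split evenly, with 24 higher and 22 lower in KO, where 52.5% of all genes were higher and 47.5% lower. Their median difference was 0.01, as over all genes (0.01), and 1 carrier differed by more than 1 on the log2 scale.

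That carrier was Slc25a32, which brings folate into the matrix and is also linked to FAD supply. In set 1 it read 11.65 and 10.97 in KO against 9.63 and 9.88 in WT. In set 2 it read 11.86 and 13.16 in KO against 10.63 and 11.51 in WT. Both KO arrays lay above both WT arrays within each set, although the lowest KO value of set 1 was below the highest WT value of set 2.

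The difference in Slc25a32 was 1.56 (SE 0.48) in set 1 and 1.44 (SE 0.48) in set 2, and 1.497 (SE 0.32) with the set term, or 2.82-fold. It ranked 30 of 30142 genes by unadjusted p, with a limma adjusted p = 0.986. An exact permutation of genotypes within the sets gave a two-sided p = 0.0556 over 36 arrangements, the smallest they can give, and over all 70 arrangements the exact p was 0.0571. Slc25a32 was picked for this permutation by its unadjusted p in these same values. Any gene whose genotypes part in the same direction in both sets reaches that smallest value, so it adds no separate support. Without KO replicate 4 the set 2 difference was 0.79, and without KO replicate 1, the array with the highest liver signal, the set 1 difference was 1.22. In set 2 the liver markers averaged 5.13 and 5.30 in KO and 5.08 and 5.02 in WT, and all 7 macrophage markers were higher in KO. The part of liver or macrophage RNA in the result was not tested. Among carriers it was the only one whose genotypes parted in the same direction in both sets (1 of 46, or 2.17%, against 2.82% of all genes higher in both and 2.46% lower in both).

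**Figure D2:**
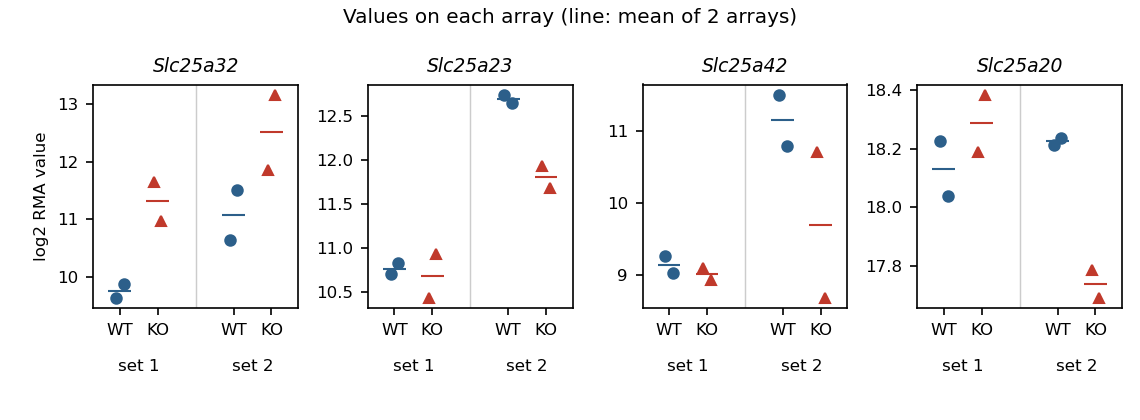
Log2 values on each array for 4 carriers, WT as circles and KO as triangles, set 1 left and set 2 right, with a line at each mean of 2 arrays. Slc25a32 is higher in KO in both sets, whereas the genotypes of Slc25a23, Slc25a42 and Slc25a20 overlap in set 1 and part in set 2 with KO lower, and none passed the adjusted test.

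Within set 1, 0 of 46 carriers passed in limma (0% of all genes). At an unadjusted p under 0.05 there were 7 carriers (15.2%), 4 higher and 3 lower, against 7.76% of all genes (2.64% higher and 5.12% lower). These 7 are 18.9% of the 37 carriers above the median level, against 13.04% of the genes above that level. By sign alone 22 carriers were higher and 24 lower (50.9% and 49.1% of all genes). Slc25a30 had the lowest adjusted p, with 7.31 and 7.16 in KO against 7.76 and 7.71 in WT, a difference of -0.50 (SE 0.10, limma adjusted p = 0.314). Slc25a39, needed for glutathione import into mitochondria, read 9.39 and 9.56 against 9.01 and 9.04, a difference of 0.45 (SE 0.11, limma adjusted p = 0.373). Slc25a37, mitoferrin 1, which brings iron to the matrix, read 5.46 and 5.23 against 5.77 and 5.85, a difference of -0.47 (SE 0.14). Slc25a51 differed by 0.38, Slc25a3 by 0.25 and Slc25a4 by -0.23 in the same set.

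Within set 2, 0 of 46 carriers passed in limma, as against 1 gene in all (0.00332%). Here 13 carriers (28.3%) had an unadjusted p under 0.05, 5 higher and 8 lower, against 15.1% of all genes (8.98% higher and 6.16% lower). These 13 are 35.1% of the 37 carriers above the median level, against 23.1% of the genes above that level. By sign alone 21 were higher and 25 lower (53.6% and 46.4% of all genes). Slc25a30 had the lowest adjusted p, with 8.64 and 8.60 in KO against 7.92 and 7.91 in WT, a difference of 0.70 (SE 0.10, limma adjusted p = 0.0784). The other 4 higher in KO at an unadjusted p under 0.05 were Slc25a37, Slc25a32, Slc25a25 and Slc25a14, with differences of 0.57, 1.44, 0.56 and 0.32. The WT values of Slc25a14 in this set, 4.84 and 4.90, were close to the olfactory 95th percentile of those arrays (4.79 and 4.74). The ATP-Mg/phosphate carrier Slc25a23 read 11.94 and 11.68 in KO against 12.75 and 12.65 in WT, a difference of -0.89 (SE 0.18, limma adjusted p = 0.113). Slc25a48, a carrier linked to choline, read 5.81 and 5.59 against 6.56 and 6.40, a difference of -0.78 (SE 0.17, limma adjusted p = 0.127). Slc25a23 and Slc25a48 had KO values below both WT values here, and neither parted the genotypes in set 1.

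Slc25a20 also stood lower in KO in set 2, with 17.79 and 17.69 against 18.21 and 18.24, a difference of -0.49 (SE 0.12, limma adjusted p = 0.137) or 1.40-fold. In set 1 the same carrier differed by 0.15 and its genotypes overlapped. Slc25a11 and Slc25a46 differed by -0.39 and -0.56 in set 2. The largest difference of set 2 was in Slc25a42, which read 10.71 and 8.68 in KO against 11.51 and 10.79 in WT, or -1.46 (SE 0.59, limma adjusted p = 0.314). That value rests on 1 array, since without KO replicate 4 it was -0.44. All 20 muscle markers were lower in KO by the mean of 2 arrays in the same set. By array their mean was 5.88 and 10.76 in KO replicates 3 and 4 against 11.16 and 9.46 in WT. The part of muscle in these values was not tested. Quantile normalization of all 8 arrays enlarged the set 2 difference of Slc25a20 to -0.76 and turned that of Slc25a4 from 0.03 to -0.32, with the cause not tested.

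**Figure D3:**
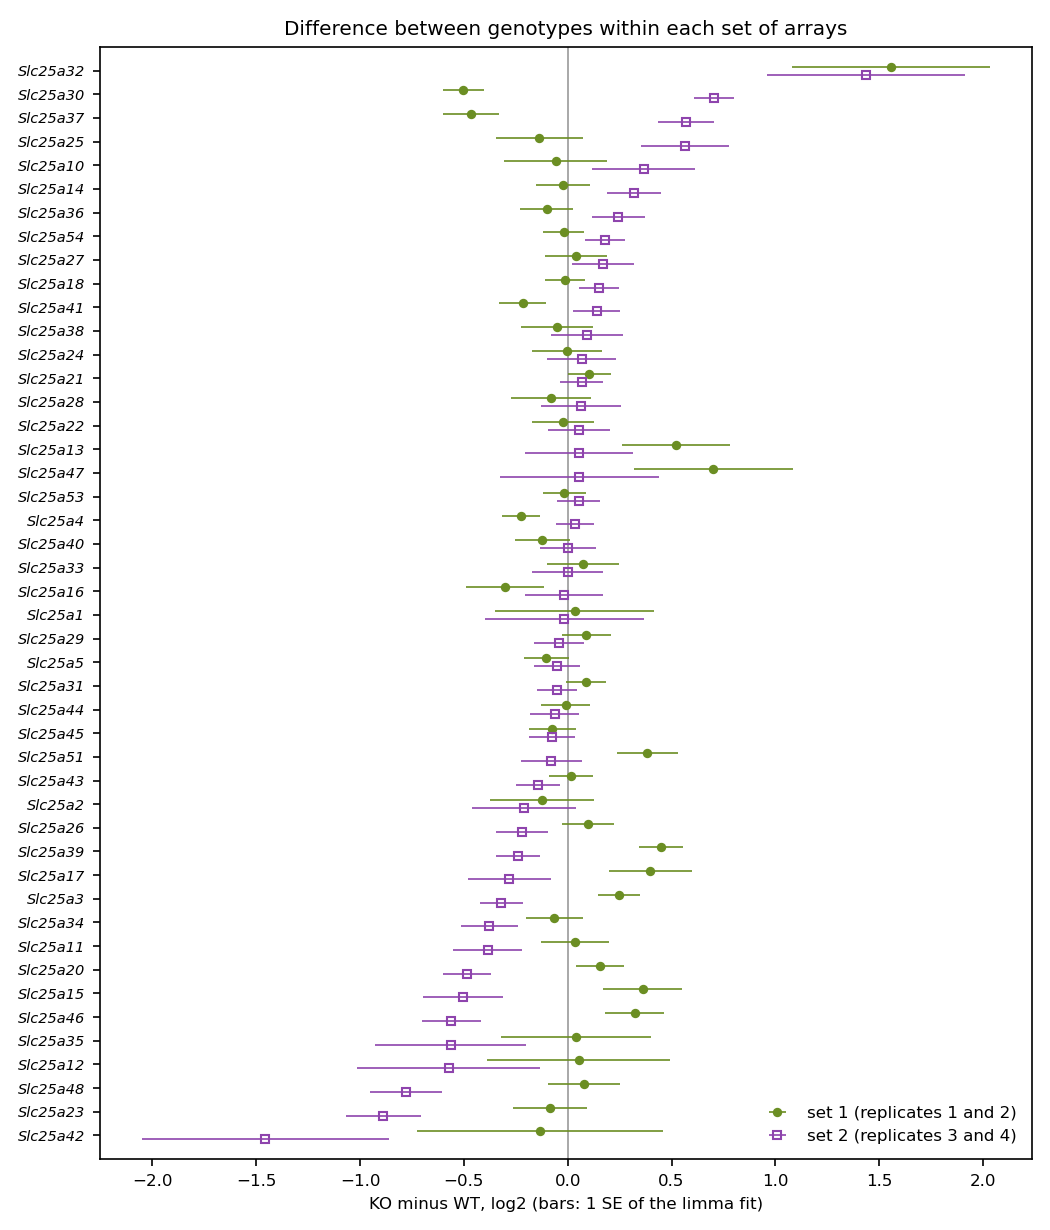
KO minus WT on the log2 scale for all 46 carriers, with 1 SE of the limma fit, in set 1 (filled circles) and set 2 (open squares), ordered by the set 2 difference. Slc25a32 is at 1.56 and 1.44, while Slc25a30 and Slc25a37 lie below 0 in set 1 and above 0 in set 2.

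The differences within the 2 sets were tested against each other. One carrier, Slc25a30, passed for the difference between the sets, 1 of 46 where 0.471% of all genes passed. At an unadjusted p under 0.05 there were 10 carriers, 2 with the larger value in set 2 and 8 with the smaller, against 15% of all genes (9.56% and 5.45%). All 10 are among the 37 carriers above the median level, a share slightly above the 25.1% of genes above that level. By sign 19 were larger and 27 smaller in set 2 (51.4% and 48.6% of all genes). Slc25a30 is a carrier first described in kidney. It was lower in KO in set 1 and higher in set 2 (-0.50 and 0.70), and the 2 differences were 1.21 apart (SE 0.14, limma adjusted p = 0.04). The call was lost with quantile normalization (adjusted p = 0.0516), with a trended variance in limma (adjusted p = 0.0678) and with any 1 array left out (adjusted p = 0.0651 to 0.158).

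Slc25a37 behaved alike without passing, at 6.97 and 6.73 in KO against 6.19 and 6.37 in WT in set 2 (0.57, SE 0.14), with the differences 1.04 apart (SE 0.19, limma adjusted p = 0.0779). Iron carriers are abundant in red cell precursors, and the erythroid marker Alas2, the 1 measured of 4 blood markers, read 6.62, 6.52, 8.60 and 7.87 in KO and 6.92, 7.23, 7.95 and 8.38 in WT. Alas2 was lower in KO in set 1, as Slc25a37 was, and its genotypes overlapped in set 2. Its part in the result was not tested. The other mitoferrin, Slc25a28, differed by -0.08 and 0.06 in the 2 sets.

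Opposite directions in the 2 sets were common. Genotypes parted in both sets and in opposite directions in 11 of 46 carriers (23.9%), against 12.8% of all genes. Of the 37 carriers above the median level 9 did so (24.3%), against 19.4% of the genes above that level. Slc25a3, Slc25a15, Slc25a17, Slc25a26, Slc25a31, Slc25a39 and Slc25a46 were higher in KO in set 1 and lower in set 2 (5.31% of all genes). Slc25a25, Slc25a30, Slc25a37 and Slc25a41 were lower in set 1 and higher in set 2 (7.45% of all genes). Slc25a31 and Slc25a41 belong to the carriers not above the olfactory level. Within set 1 alone the genotypes parted in 10 carriers with KO higher and 8 with KO lower (18.9% and 19.5% of all genes), and within set 2 in 9 and 15 (24% and 19.1%).

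The phosphate carrier Slc25a3 is an example at good signal. It read 8.63 and 8.59 in KO against 8.38 and 8.35 in WT in set 1, and 9.76 and 9.57 against 9.98 and 9.98 in set 2. The differences were 0.25 and -0.32 (SE 0.10 each), and their distance of -0.57 had a limma adjusted p = 0.135. Slc25a46 differed by 0.32 and -0.56 (limma adjusted p = 0.108 for the distance) and Slc25a39 by 0.45 and -0.24 (limma adjusted p = 0.101). Slc25a25, an ATP-Mg/phosphate carrier known as inducible, read 4.58 and 4.49 against 4.75 and 4.60 in set 1 and 5.95 and 6.64 against 5.76 and 5.70 in set 2. Its set 2 difference of 0.56 was 0.22 without KO replicate 4.

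Across the 46 carriers the differences of set 1 and set 2 had a Pearson r of 0.17, and of -0.29 without Slc25a32, beside -0.28 over all genes. These are correlations across genes, which are not independent replicates, and the sign over the carriers turns on that 1 gene. In 13 of 46 carriers (28.3%) both differences had the same sign, against 42.9% of all genes and 37.1% of genes above the median level.

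**Figure D4:**
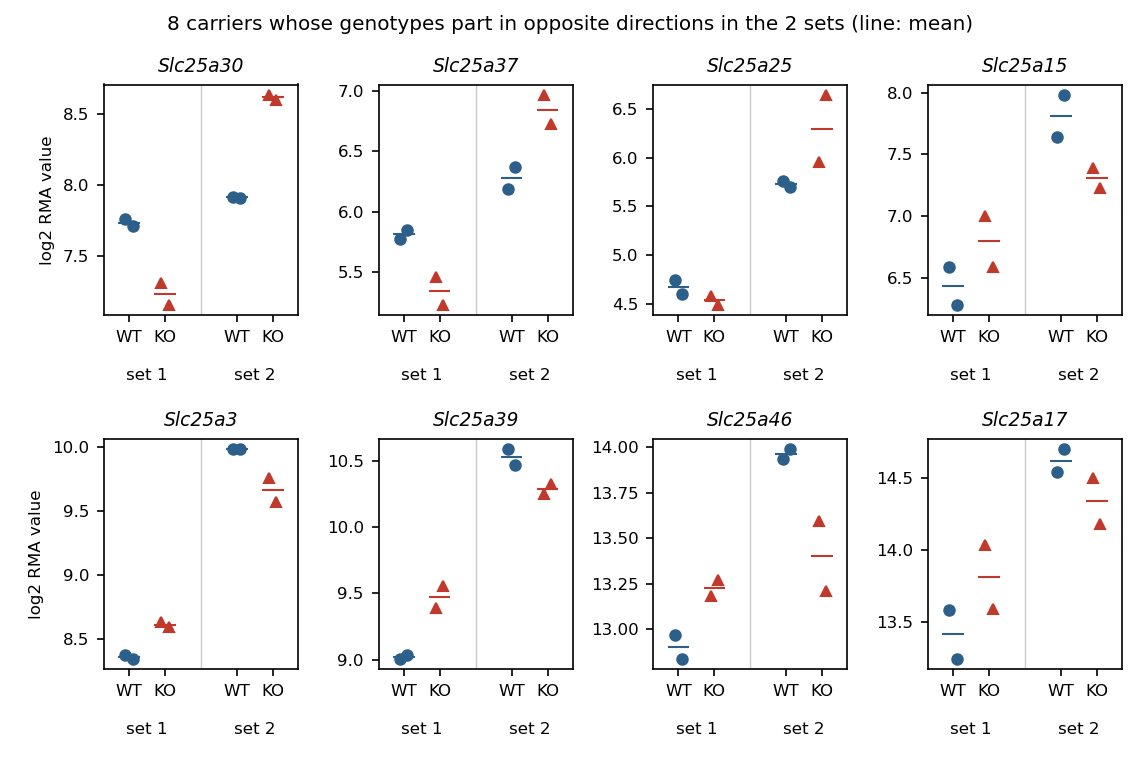
Log2 values on each array for 8 of the 11 carriers whose genotypes part in opposite directions in the 2 sets, WT as circles and KO as triangles with a line at each mean of 2 arrays. Slc25a30, Slc25a37 and Slc25a25 are lower in KO in set 1 and higher in set 2, and the other 5 shown are the reverse; of the 46 carriers, Slc25a30 alone passed when the sets were tested against each other.

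By role, the 16 measured carriers of nucleotides, phosphate and cofactors had 8 higher and 8 lower in KO with the set term and a median of -0.01. In set 2, 10 of the 16 were lower and 6 higher. Members of this group include the pyrimidine nucleotide carriers Slc25a33 and Slc25a36, which differed by 0.04 and 0.07, and the S-adenosylmethionine carrier Slc25a26, at -0.06. The grouping by role is approximate, since several carriers have no settled substrate.

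The 9 carriers listed with di- and tricarboxylates had 6 higher and 3 lower, with a median of 0.09. The citrate carrier Slc25a1, which exports citrate for fatty acid synthesis, differed by 0.01 (SE 0.26), and by -0.0233 after quantile normalization. Its values were 10.32, 10.22, 11.07 and 12.24 in KO and 9.88, 10.59, 11.74 and 11.60 in WT, and the genotypes overlapped in both sets. Slc25a10, the dicarboxylate carrier, differed by 0.15 (SE 0.18) and Slc25a11 by -0.18 (SE 0.13). Slc25a35 read 11.63 and 12.78 in KO against 12.82 and 12.71 in WT in set 2, so its set 2 difference of -0.56 was 0.01 without KO replicate 3. Slc25a34 stood at -0.22 (SE 0.11), and the brain-enriched carriers Slc25a14 and Slc25a27 at 0.15 and 0.11.

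The 9 amino acid carriers had 5 higher and 4 lower, with a median of 0.02. Slc25a44 was among the steadiest carriers of high signal, with 9.48, 9.76, 11.38 and 11.32 in KO and 9.60, 9.67, 11.41 and 11.41 in WT, a difference of -0.04 (SE 0.08). The glutamate carrier Slc25a22 differed by 0.02 and the glycine carrier Slc25a38, used in heme synthesis, by 0.02. Slc25a12, known from muscle and brain, read 5.47, 6.00, 6.81 and 8.08 in KO and 5.84, 5.53, 8.38 and 7.65 in WT. Within each set its 4 arrays had the same order as the mean of the muscle markers given above. The part of muscle in its set 2 difference of -0.57 (SE 0.44) was not tested, and without KO replicate 3, the array lowest in muscle markers, the difference was 0.07.

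The carriers best known from liver stood highest in set 1 on the array with the most liver signal. Slc25a13 read 5.04 in KO replicate 1 and 3.97 to 4.22 on the other 3 arrays of set 1. Slc25a47 read 5.83 there and 4.24 to 4.77 on the others. Their set 1 differences were 0.52 (SE 0.26) and 0.70 (SE 0.38), and without KO replicate 1 they were 0.10 and 0.08. In set 2 Slc25a47 differed by 0.05, and Slc25a13 was not above the olfactory 95th percentile on any array, so its set 2 difference is not interpretable. The ornithine carrier Slc25a15, part of the urea cycle in liver, differed by 0.36 in set 1 and -0.50 in set 2. The part of liver RNA in these values was not tested.

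**Figure D5:**
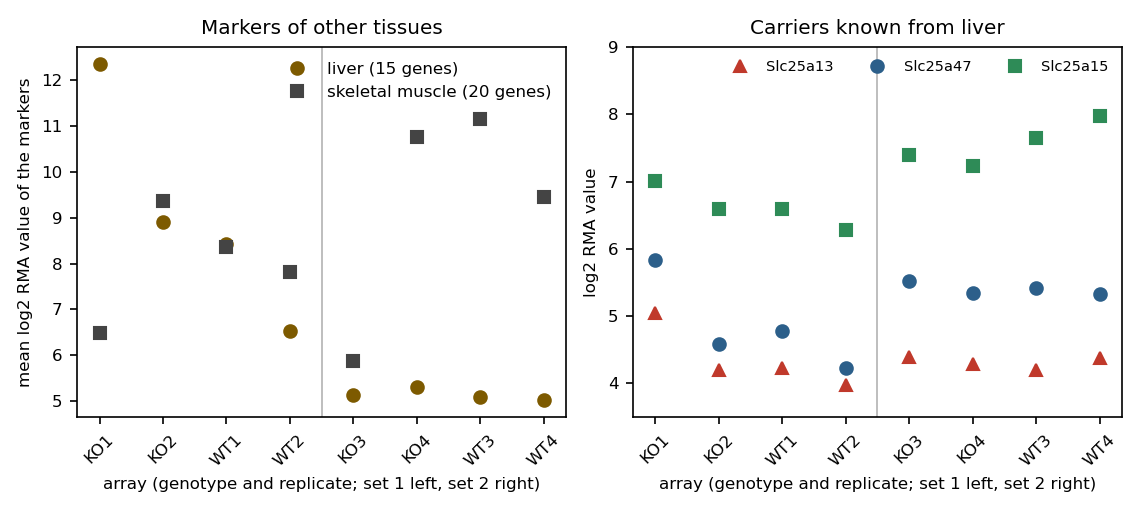
Left, mean log2 value of the 15 liver and 20 skeletal muscle markers on each array. Right, log2 values of 3 carriers known from liver on the same arrays. KO replicate 1 has the highest liver signal (12.36) and the highest set 1 values of Slc25a13 (5.04), Slc25a47 (5.83) and Slc25a15.

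The acylcarnitine carrier Slc25a20 differed by -0.17 (SE 0.14) with the set term. The 4 carriers of metals and glutathione had 2 higher and 2 lower, with differences between -0.06 and 0.11. The 7 others had 3 higher and 4 lower, from -0.35 for Slc25a48 to 0.38 for Slc25a47. Slc25a43, Slc25a45, Slc25a53 and Slc25a54, whose roles were least settled, lay between -0.07 and 0.08.

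Of 40 other genes of mitochondrial transport 35 were measured, and limma called 0 of them in any comparison (at an unadjusted p under 0.05, 0 with the set term, 6 in set 1, 12 in set 2 and 13 for the difference between the sets). These are 17.1%, 34.3% and 37.1% of the list, against 7.76%, 15.1% and 15% of all genes and 13.04%, 23.1% and 25.1% of genes above the median level. With the set term 11 were higher and 24 lower, with a median of -0.08. In set 1, 24 were higher and 11 lower (median 0.11), and in set 2, 8 were higher and 27 lower (median -0.23). The shares higher with the set term, in set 1 and in set 2 were 31.4%, 68.6% and 22.9%. Over all genes they were 52.5%, 50.9% and 53.6%, and over genes above the median level 45.6%, 37.9% and 56.1%. The 4 with the smallest unadjusted p were the heme-related transporter Abcb10 (-0.23, SE 0.10), the import proteins Timm10 (0.22, SE 0.11) and Timm29 (-0.27, SE 0.13), and Ucp3 (-0.91, SE 0.50). Ucp1 lay within 0.1 of the highest value on every array and could not be compared. Mtch1 and Mtch2, outer membrane relatives of the family, differed by -0.14 and 0.09.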

How the data were processed

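The deposited values are log2 expression values of 72688 probe sets on 8 arrays, which the authors computed by RMA (core-exon analysis, Expression Console), per the labels. Software versions and the genome build were not given in the sources used here. Controls (6732 probe sets) were left out. Of 65956 others, 30604 had 1 gene in the platform annotation, 2146 had several, and 33206 stayed unnamed. Gene identifiers led to current symbols through RefSeq (assembly GRCm38.p6) for 22818 probe sets. The probe set with the highest mean represented a gene, which gave 30142 genes.

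limma (version 3.58.1 in R 4.3.3; lmFit, eBayes, Benjamini-Hochberg adjusted p under 0.05 over all genes) was fitted to KO minus WT with the set as a term, and to 4 means (set by genotype) for each set and their difference. Separate animals are named by the labels, and 4 arrays per genotype limit the precision. On simulated arrays of 30142 genes the set-term fit recovered 85 of 100 genes changed by 1 (log2) and 99 of 100 changed by 2. Within set 1 it was 54 and 87 of 100, and within set 2 it was 59 and 90. The simulated noise had the spread between arrays of the same set and genotype, and each change was equal in both sets. Disagreement between the sets, which adds to the residual spread of the set-term fit on the real arrays, was thus left out. The set-term recoveries hold only without such disagreement, and how far the others hold for the 8 real arrays was not tested. On the real arrays 142 genes passed for the difference between the sets. With the set term 0 of 30142 genes passed there, and Slc25a32, at a difference of 1.497, had a limma adjusted p = 0.986. No 2 arrays had identical values. Members and lists were chosen with earlier results of these data known. Named with values on each array were the 10 carriers of highest signal, those with the smallest p in each comparison (8 with the set term, 5 in each other) and 18 fixed carriers, in part as ranges. Alternatives were a fit without the set term, a replicate block, quantile normalization, centring and a filter on low values. Others were trended variance, the mean of probe sets, each set fitted alone and leaving out each array. Percentiles were also taken by set.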

Additional observations from a re-analysis of the deposited data

Results flagged for a closer look

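In the wild type group Slc25a20 read 18.04 in replicate 2, apart from the other 3 values of 18.21 to 18.24, and about 1 in 20 groups would stand out like this by chance. These 4 values come from both sets, whose scales differ, and set 1 holds 2 of them (18.22 and 18.04), so the gap was not judged within a set. Slc25a30 differed between the sets in its KO minus WT difference by 1.21 (limma adjusted p = 0.04), which was tested as the difference itself.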

How the results depend on the processing

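Counts of called carriers were 0 under all alternatives run for the set-term comparison and within each set. For the difference between the sets the count fell from 1 to 0 with quantile normalization, with a trended variance and with each array left out (0 to 0). The median over carriers had no stable sign. With the set term it was 0.0124, and -0.0185 with quantile normalization, -0.00958 with centring, -0.00829 with the filter and -0.0238 to 0.00634 with 1 array left out. In set 1 it was -0.00731, and 0.0226 with quantile normalization and -0.00731 to 0.0263 with 1 array left out. In set 2 it was -0.017, and -0.0897 with quantile normalization and -0.0627 to 0.0153 with 1 array left out (-0.0627 without WT replicate 3), where the carriers' median had an SD between replicates of 0.0235. With the replicate block 0 carriers passed and Slc25a32 stood at 1.497 (limma adjusted p = 0.701). Deviations of same-numbered arrays correlated at 0.702, 0.471, 0.478 and 0.61, but at 0.108, 0.108, -0.0916 and -0.0916 with the set removed, so numbers are not shown to pair the mice. Over the alternatives Slc25a32 ranged from 1.25 to 1.77 (limma adjusted p = 0.701 to 1).

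Differences near 0 with the set term changed sign. Quantile normalization gave -0.10 for Slc25a17 and -0.0233 for Slc25a1, and centring gave -0.014 for Slc25a1 and -0.0051 for Slc25a31. With 1 array left out, a lone array being assumed to vary like the rest, the ranges were -0.10 to 0.19 (Slc25a17), -0.23 to 0.0466 (Slc25a46), -0.22 to 0.25 (Slc25a1), -0.10 to 0.0154 (Slc25a44), -0.43 to 0.0285 (Slc25a35), -0.10 to 0.0591 (Slc25a3), -0.0258 to 0.25 (Slc25a30), -0.45 to 0.0582 (Slc25a12), -0.10 to 0.20 (Slc25a37), -0.0409 to 0.27 (Slc25a10) and -0.0217 to 0.0433 (Slc25a31). The cause was not tested. Over all genes, 142 passed for the difference between the sets, 129 with quantile normalization, 82 with centring, 379 with the filter, which tests fewer genes, 4 with a trended variance and 0 to 23 with 1 array left out (23 without KO replicate 3). In set 2, 1 gene passed, 15 with the filter and 0 to 10 with 1 array left out (10 without KO replicate 3). In set 1, 0 passed, and 14 without KO replicate 2. Signal over background limits the 8 carriers at the olfactory level.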
